A study of Rattus norvegicus with 8 samples.

Results

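The 10 genes described here encode calcium/calmodulin-dependent protein kinases, the CaM kinases: the 4 subunits of CaMKII (Camk2a, Camk2b, Camk2d and Camk2g), 3 members of the CaMKI group (Camk1, Camk1d and Camk1g), Camk4, and the upstream kinases Camkk1 and Camkk2. They were chosen by name as every row of the deposited table that carries one of these symbols. All 10 were found, as 14 transcripts, among 13272 gene symbols and 16266 transcripts in all. The RNAseq was carried out on hippocampi of 8 adult rats that had been adrenalectomized, so that both groups lacked their own adrenal corticosterone, and that drank a low corticosterone solution during recovery until a washout before the experiment. The vehicle group (4 rats) received 0.45% saline and the CORT group (4 rats) received 0.75 mg/mL corticosterone, complexed with 2-hydroxypropyl-β-cyclodextrin to keep it in solution and delivered in the same saline, each as an infusion of 30 min that began at zeitgeber time (ZT) 2, counted from lights on. According to the methods the tissue was taken 2 h after the start of the infusion, at ZT 4, whereas the sample labels carry only ZT 2. The labels name Sprague-Dawley rats of 3 to 4 months, the methods name Lister hooded rats and younger animals, and the vehicle samples are titled as untreated. Vehicle rats stand here for an absence of corticosterone and not for the daily low of an intact rat. The vehicle is described as saline without cyclodextrin, so effects of this carrier and of corticosterone cannot be told apart.

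CaM kinases read the calcium signal of an active cell. Calcium binds calmodulin, and calcium-loaded calmodulin opens the kinase by displacing an inhibitory segment from its catalytic site. CaMKII is a large ring of subunits that phosphorylate each other, so that the enzyme can stay active after the calcium has gone, and in the hippocampus it is abundant at excitatory synapses and needed for long-term potentiation (LTP), the lasting strengthening of a synapse. CaMKI and CaMKIV form a separate cascade in which CaMKK phosphorylates and activates them, and CaMKIV in the nucleus phosphorylates the transcription factor CREB. In the study of which these samples are a part, CaMKII was of interest as a link between corticosteroids, the hippocampal clock and synaptic plasticity. The comparison of CORT with vehicle asks which of these mRNAs differed shortly after corticosterone reached a hippocampus without an adrenal supply of it.

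The values are FPKM, fragments per kilobase of transcript normalized to the number of mapped fragments, which are scaled per length and so can be set side by side between genes. The deposited values are 1 per group for each transcript, made by the authors from 4 rats. The spread between rats cannot be seen in them, so no test between groups was run, no error can be given for a value or a ratio, and no difference below is shown to exceed the spread between rats. The table gives no depth for a rat or a value, and the methods state only an approximate number of reads for the samples that shared a lane of the sequencer. Each log2 ratio divides the CORT group value by the vehicle group value, and a transcript was counted as different in size when this ratio was at least 1.5-fold in either direction with at least 1 FPKM in one of the groups or both.

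None of the 14 CaM kinase transcripts differed by 1.5-fold. All 14 reached 1 FPKM in the table, in which 15808 transcripts did. Across those 15808 transcripts, 8.45% differed by 1.5-fold, 4.00% being higher and 4.45% lower in the CORT group. The log2 ratios of the CaM kinases lay between -0.10 and 0.31, the latter a 1.24-fold difference. They were above 0 for 10 transcripts and below 0 for 4, against 55.3% above 0 over all transcripts. Their median was 0.14, beside 0.02 over all transcripts. This median depended on the scaling: it was 0.05 with both groups brought to the same total FPKM, beside -0.07 over all transcripts, and 0.037 when centred on the excitatory neuron markers, beside -0.08. With the transcripts of a symbol added up, 8 genes were higher and 2, Camk2b and Camk1d, were lower in the CORT group.

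Levels of the 10 genes spanned a wide range and stood in the same order in both groups. From the highest down, this order was Camk2a, Camk2b, Camkk1, Camk1, Camkk2, Camk1d, Camk4, Camk2d, Camk1g and Camk2g. In the vehicle group the summed FPKM of Camk2a was 460 times that of Camk2g, and in the CORT group 444 times. According to the methods, entries with too few aligned reads were removed, so further transcripts of these genes may be missing from the sums. Camk1, Camkk2 and Camk1d were close neighbours, at 23.7, 23.0 and 22.1 FPKM with vehicle, and without values per rat their order cannot be told from equality.

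**Figure D1:**
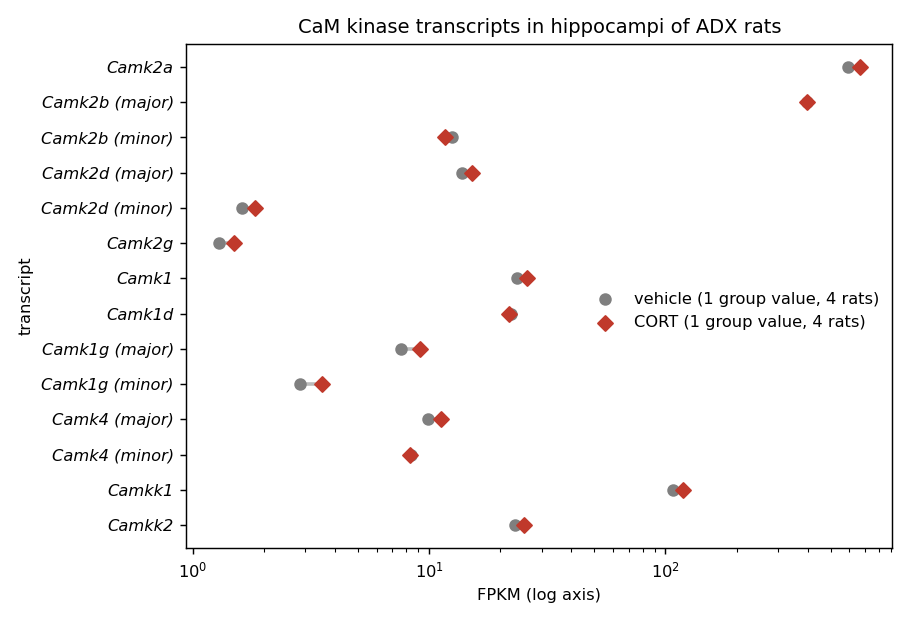
FPKM (log axis) of each of the 14 CaM kinase transcripts in the vehicle group (grey circles) and the CORT group (red diamonds), 1 group value from 4 rats each with no error bar, where major and minor mark the higher and the lower transcript of a gene that has both. The paired symbols lie close together in every row, from 1.29 and 1.503 FPKM for Camk2g to 593 and 667 FPKM for Camk2a.

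CaMKII made up most of the CaM kinase mRNA. Summed over its 4 genes it came to 1017 FPKM after vehicle and 1092 FPKM after CORT, which is 83.2% and 83.0% of the FPKM of all 10 genes. The log2 ratio of this sum was 0.10. Of the 6 CaMKII transcripts, 4 had a log2 ratio above 0.

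Camk2a encodes the α subunit of CaMKII, which is found in excitatory forebrain neurons. It has 1 transcript in the table (ENSRNOT00000041533.5), with a locus on chromosome 18 of rn6 from 56193977 to 56295869. Its level was 593 FPKM after vehicle and 667 FPKM after CORT, a log2 ratio of 0.17, or 12.5% more. It ranked 89 with vehicle and 83 with CORT among all 16266 transcripts. Of the 924 transcripts with a mean of at least 100 FPKM, 88.5% had a lower log2 ratio than Camk2a.

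Camk2b encodes the β subunit, which binds filamentous actin and so ties the enzyme to the cytoskeleton of the spine. Its locus is on chromosome 14 of rn6, from 86208900 to 86297652. The major Camk2b transcript (ENSRNOT00000085265.1) was at 395.4 FPKM after vehicle and 395.1 FPKM after CORT. These values are almost equal, with a log2 ratio that rounds to 0 (-0.00091). The minor Camk2b transcript (ENSRNOT00000081607.1) was at 12.5 FPKM after vehicle and 11.7 FPKM after CORT, a log2 ratio of -0.10 and the lowest among the CaM kinases. The major transcript held 96.9% of the Camk2b FPKM with vehicle and 97.1% with CORT.

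The ratio of the α to the β subunit mRNA was 1.45 with vehicle and 1.64 with CORT. As the values were deposited, Camk2a was higher and Camk2b was level, but this depends on the scaling. With each group scaled to the same total FPKM, the log2 ratio was 0.08 for Camk2a and -0.09 for the major Camk2b transcript. The share of Camk2a in the summed CaMKII FPKM was 58.3% with vehicle and 61.1% with CORT, and that of Camk2b was 40.1% and 37.2%. A ratio within a group does not depend on how the libraries were scaled. These shares of mRNA say nothing of how the subunits are mixed in the protein.

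**Figure D2:**
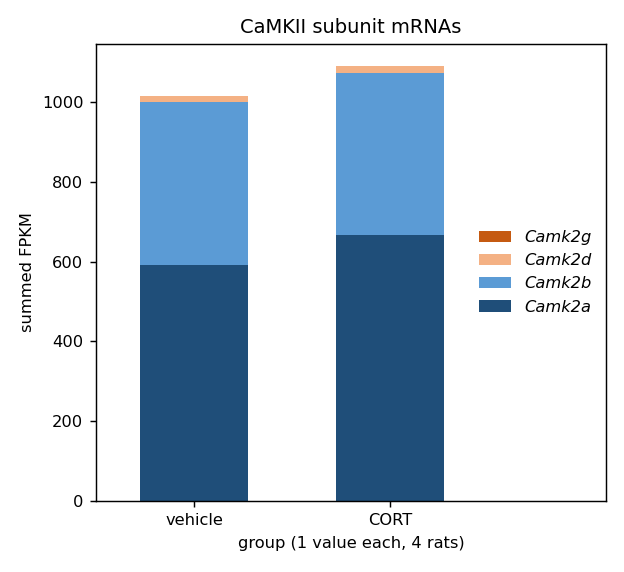
Summed FPKM of the 4 CaMKII subunit genes (vertical axis, from 0) in the vehicle and the CORT group, 1 group value from 4 rats each with no error bar. The Camk2a segment is taller with CORT (667 against 593 FPKM), the Camk2b segment is of nearly the same height, and Camk2g is too low to be seen at this scale.

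Camk2d and Camk2g encode the δ and γ subunits, which are made in many tissues besides the brain. The locus of Camk2d is on chromosome 2 of rn6, from 230901125 to 231132039. The major Camk2d transcript (ENSRNOT00000015564.7) was at 13.8 FPKM after vehicle and 15.2 FPKM after CORT, a log2 ratio of 0.14. The minor Camk2d transcript (ENSRNOT00000016026.8) was at 1.62 FPKM after vehicle and 1.84 FPKM after CORT, a log2 ratio of 0.18. Both were thus slightly higher in the CORT group, and the major transcript held 89.5% of the Camk2d FPKM with vehicle and 89.2% with CORT. Camk2g, on chromosome 15 of rn6 from 3936785 to 3995915, has 1 transcript in the table (ENSRNOT00000066163.4). It was the lowest of the 10 genes, at 1.29 FPKM after vehicle and 1.503 FPKM after CORT, a log2 ratio of 0.22. Ratios at so low a level spread widely: of the 7615 transcripts with a mean from 1 to under 10 FPKM, 11.6% differed by 1.5-fold, 5.32% being higher and 6.30% lower, and the 5th and 95th percentiles of their log2 ratios were -0.67 and 0.61. Of that band 50.3% were above 0.

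The upstream kinases Camkk1 and Camkk2 phosphorylate the activation loop of CaMKI and CaMKIV, and Camkk2 also that of the energy sensor AMPK. Camkk1 (ENSRNOT00000025009.6) was at 107 FPKM after vehicle and 119 FPKM after CORT, a log2 ratio of 0.14. Camkk2 (ENSRNOT00000001774.6), on chromosome 12 of rn6 from 39253408 to 39302601, was at 23.0 FPKM after vehicle and 25.3 FPKM after CORT, a log2 ratio of 0.14. Both were higher in the CORT group, by 10.5% for Camkk1 and 9.84% for Camkk2. The ratio of Camkk1 to Camkk2 was therefore nearly the same, 4.67 with vehicle and 4.70 with CORT. The locus given for Camkk1, on chromosome 10 of rn6 from 59529784 to 59711874, is also the locus given for Atp2a3, Gsg2, Itgae and RGD1308139, so it covers a cluster of overlapping annotations and not Camkk1 alone. The other 4 symbols were much lower, the highest being RGD1308139 at 8.10 FPKM after vehicle and 8.27 FPKM after CORT.

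The CaMKI group acts in the cytoplasm and has been linked to the growth of axons and dendrites. Camk1 (ENSRNOT00000029728.5) was at 23.7 FPKM after vehicle and 25.9 FPKM after CORT, a log2 ratio of 0.13. Its locus, on chromosome 4 of rn6 from 145282796 to 145300177, is shared in the table with the DNA repair gene Ogg1, which was at 5.78 FPKM after vehicle and 6.19 FPKM after CORT. Reads from genes that overlap may not be fully separated. Camk1d (ENSRNOT00000024099.6), on chromosome 17 of rn6 from 76532610 to 76938956, was at 22.1 FPKM after vehicle and 21.7 FPKM after CORT. Its log2 ratio was -0.03.

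Camk1g, which encodes CaMKIγ, a membrane-anchored form found mainly in neurons, had the highest log2 ratios of the CaM kinases. Its locus is on chromosome 13 of rn6, from 112075689 to 112099336. The major Camk1g transcript (ENSRNOT00000009158.6) was at 7.64 FPKM after vehicle and 9.16 FPKM after CORT, a log2 ratio of 0.26. The minor Camk1g transcript (ENSRNOT00000044161.2) was at 2.84 FPKM after vehicle and 3.53 FPKM after CORT, a log2 ratio of 0.31. Both were higher in the CORT group, and their sum went from 10.5 to 12.7 FPKM, 21.1% more. Among transcripts with a mean from 1 to under 10 FPKM, 83.3% had a log2 ratio below that of the major and 86.2% below that of the minor Camk1g transcript. The share of Camk1g in the summed FPKM of Camk1, Camk1d and Camk1g was 18.6% with vehicle and 21.1% with CORT. That of Camk1d was 39.3% and 36.0%. Pnck, which was listed with the relatives, is not part of that sum, and it was at 54.8 FPKM after vehicle and 64.0 FPKM after CORT.

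Camk4 encodes CaMKIV, the nuclear kinase that phosphorylates CREB. Its locus is on chromosome 18 of rn6, from 25749097 to 25965957. The major Camk4 transcript (ENSRNOT00000027771.4) was at 9.91 FPKM after vehicle and 11.2 FPKM after CORT, a log2 ratio of 0.18. The minor Camk4 transcript (ENSRNOT00000078822.1) was at 8.38 FPKM after vehicle and 8.33 FPKM after CORT, a log2 ratio of -0.01. The major transcript was thus higher with CORT and the minor was level, and the share of the major in the Camk4 FPKM was 54.2% with vehicle and 57.4% with CORT. How fragments are divided between overlapping transcripts of a gene is an estimate. The sum of both was 18.3 FPKM after vehicle and 19.5 FPKM after CORT (log2 ratio 0.09).

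**Figure D3:**
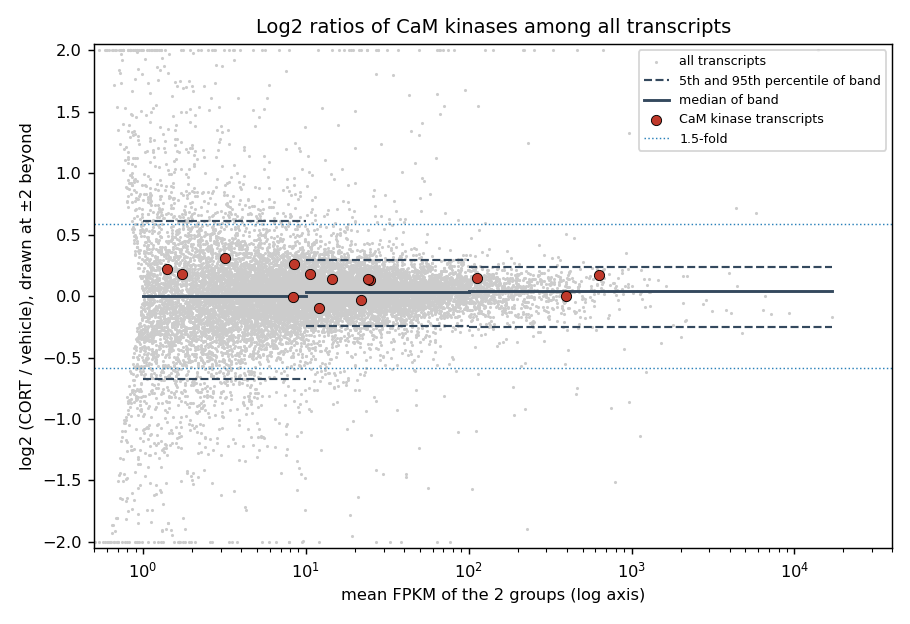
Log2 ratio of CORT over vehicle (vertical axis, values beyond ±2 drawn at ±2) against the mean FPKM of both groups (log axis) for the 15808 transcripts at or above 1 FPKM (grey) and the 14 CaM kinase transcripts (red), with the median and the 5th and 95th percentiles of each FPKM band and dotted lines at 1.5-fold. Every red point lies inside the percentiles of its band, 10 of them above 0 and 4 below.

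Spread around 0 was wider among transcripts under 10 FPKM than in the bands above, and the CaM kinases lay inside it. For transcripts with a mean from 10 to under 100 FPKM, the 5th and 95th percentiles of the log2 ratio were -0.24 and 0.29, and 60.3% were above 0. For those at 100 FPKM and above, they were -0.25 and 0.23, and 64.4% were above 0. Transcripts that differed by 1.5-fold were 2.38% of the middle band, with 1.35% higher and 1.03% lower, and 3.14% of the top band, with 1.62% higher and 1.52% lower. None of the CaM kinases in these bands was among them.

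Promoter sequences of 8 of the 10 genes were found in a RefSeq table for the GRCr8 assembly, which differs from the build of the values, each as 250 bases before and 50 bases after the annotated start. Camk1d and Camkk2 had no entry. The glucocorticoid response element (GRE), to which the corticosteroid receptors bind as pairs, was searched as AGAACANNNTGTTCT and as a single arm, AGAACA, on both strands. The full GRE was in 0 of the 8 promoters and in 0.0149% of all 33469 promoters of this length. The single arm, which also lies within every full GRE, was in 2 of the 8, Camk1 and Camk4, and in 20.7% of all promoters. Those places are shown because they are the only letters of the GRE search in these windows, with the arm in capitals and, for Camk4, on the opposite strand. The Camk1 arm begins 151 bases before the start (chr4:148047279-148047308, minus strand of GRCr8) and the Camk4 arm at base 15 after it (chr18:24857154-24857183, plus strand).
Camk1: agggtctgcaatAGAACAactgggcccctt
Camk4: gaggaggtgaagTGTTCTaagctctacctt
The CREB site, CRE, was searched as TGACGTCA and as its shorter form TGACG, which lies within it. The full CRE was in 0 of the 8 promoters and in 1.83% of all. The short form was in 3 of the 8, Camk1, Camkk1 and Camk2a, and in 21.2% of all. Only Camk2a held it at more than one place, 150 and 92 bases before the start, on opposite strands (chr18:56649018-56649046 and chr18:56649076-56649104, plus strand of GRCr8). Capitals mark the short form.
Camk2a, upstream: ggacctggatgcTGACGaaggctcgcgag
Camk2a, nearer: aagccccaagctCGTCAatcaagctggtt
A match is a description of letters and not a bound site, and no binding was measured in these samples. A full GRE is so rare in windows of this length that its absence from 8 promoters says little. The paper cites glucocorticoid receptor sites in or near CamkII from earlier work, and letters outside these windows were not searched. The base composition of the 8 promoters differed widely, with a GC content from 45.7% for Camk4 and 47.7% for Camk1g to 81.3% for Camk2b, beside a median of 51.7% over all promoters.

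Genes that act with the CaM kinases were taken from 5 lists: relatives, calmodulin and its buffers, CaMKII inhibitors and partners, opposing phosphatases, and substrates and effectors. Of 63 listed genes, 61 were in the table, with 83 transcripts at or above 1 FPKM. Of these, 6 were higher and 2 lower by 1.5-fold, 9.64% in all, beside the 8.45% over the whole table. With the transcripts of a symbol summed, 2 of the 61 genes differed by 1.5-fold, Grin2b higher and Dapk2 lower, which is 3.28% beside 5.14% over all symbols, so the list lay above the background share in the first count and below it in the other. Their median log2 ratio of 0.14 was the same as that of the CaM kinases, and 66 of the 83 were above 0 in the scaling of the deposited values. Over all transcripts 55.3% were above 0, with 4.00% higher and 4.45% lower by 1.5-fold, shares to set beside each list below. In the bands from 10 to under 100 FPKM and from 100 FPKM, 60.3% and 64.4% were above 0.

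Calmodulin mRNA was abundant in both groups. Of the 8 transcripts of calmodulin and of proteins that hold calmodulin in reserve, 5 had a log2 ratio above 0 and none differed by 1.5-fold, with a median of 0.06. Calm3, a calmodulin gene and the highest of the list, was at 1396 FPKM after vehicle and 1532 FPKM after CORT, a log2 ratio of 0.13. CaMKII inhibitors and partners had a median log2 ratio of 0.22, with 12 of 15 transcripts above 0, 2 higher by 1.5-fold and 0 lower. Over all transcripts these shares were 55.3%, 4.00% and 4.45%. Camk2n1, an endogenous inhibitor of CaMKII, was at 882 FPKM after vehicle and 1026 FPKM after CORT, a log2 ratio of 0.22. Its mRNA was therefore 1.49 times that of Camk2a with vehicle and 1.54 times with CORT. The transcripts past 1.5-fold were a minor one of the scaffold gene Shank1 (0.550 FPKM after vehicle and 1.06 FPKM after CORT) and 1 of 3 of Actn1, an α-actinin (6.24 and 9.71 FPKM). With all transcripts summed, Shank1 and Actn1 had log2 ratios of 0.27 and 0.30.

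Among relatives of the CaM kinases, the median log2 ratio was 0.16, with 10 of 15 transcripts above 0, beside 55.3% over all transcripts. Camkv, a kinase-like protein without kinase activity and the highest of this list, was at 183 FPKM after vehicle and 205 FPKM after CORT, a log2 ratio of 0.16. A minor transcript of the death-associated kinase gene Dapk1 was higher by 1.5-fold (2.41 and 4.04 FPKM), and Dapk2 was lower (3.21 and 2.13 FPKM). The summed Dapk1 transcripts had a log2 ratio of 0.26.

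Opposing phosphatases had a median log2 ratio of 0.06, with 8 of 13 transcripts above 0. Ppp3ca, a catalytic subunit of the calcium-activated phosphatase calcineurin, was the highest, at 345 FPKM after vehicle and 370 FPKM after CORT (log2 ratio 0.10). Those past 1.5-fold were minor transcripts of genes whose major transcript was level. For Ppp3r1, the regulatory subunit of calcineurin, a minor transcript was at 0.0235 FPKM after vehicle and 15.8 FPKM after CORT, while the major was at 339 and 346 FPKM. For Ppp1ca, a catalytic subunit of protein phosphatase 1, the minor was at 3.00 and 1.04 FPKM and the major at 190 and 198.5 FPKM.

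Substrates and effectors had a median log2 ratio of 0.20. Of their 32 transcripts 31 were above 0, the exception being Prkaa1 (-0.07), beside 55.3% over all transcripts. Some lay close to 0, such as Hdac5 (0.0007) and Tiam1 (0.007), so this count depends on the scaling. With each group scaled to the same total FPKM, every log2 ratio is lower by 0.09 and 33.99% of all transcripts are above 0. Where 4.00% of all transcripts were higher and 4.45% lower by 1.5-fold, 2 of the 32 were higher and 0 lower. These were Grin2b, the NMDA receptor subunit that docks CaMKII, at 3.98 FPKM after vehicle and 6.80 FPKM after CORT (log2 ratio 0.77), and the lowest of 3 transcripts of Gria1, an AMPA receptor subunit that CaMKII phosphorylates, at 2.63 and 4.11 FPKM (0.64). With its transcripts summed, Gria1 had a log2 ratio of 0.12. The paper already names Grin2b as corticosteroid-regulated from this same experiment, so the higher Grin2b value is no independent result. Syn1, which encodes the synaptic vesicle protein synapsin I and was the highest of this list, was at 168 FPKM after vehicle and 182 FPKM after CORT (0.12).

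**Figure D4:**
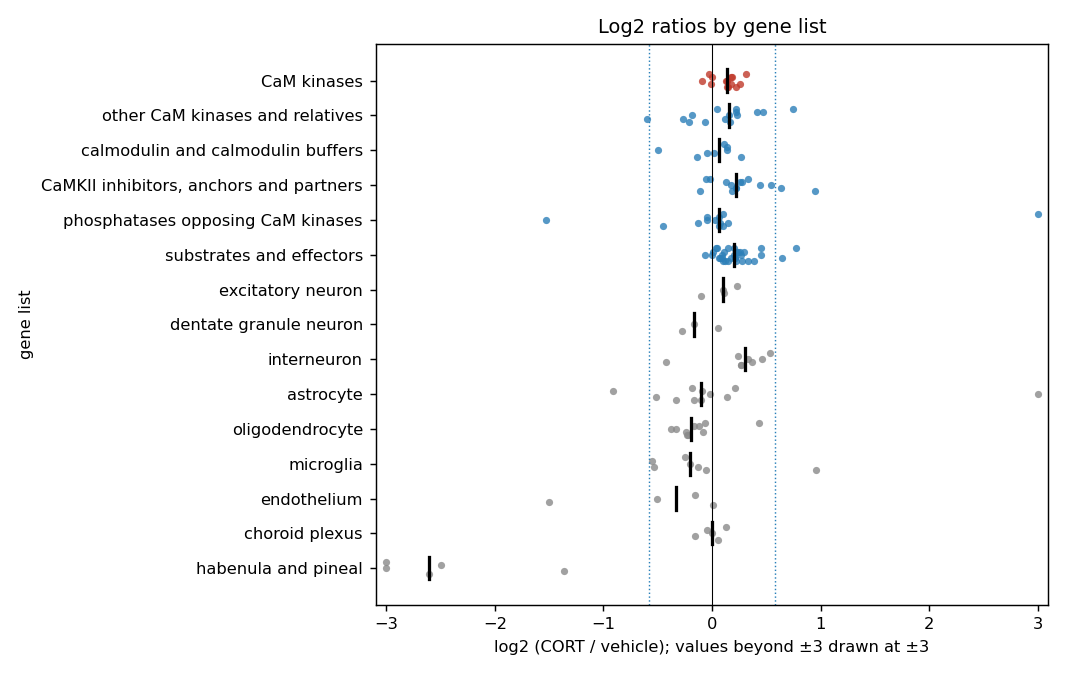
Log2 ratio of CORT over vehicle (horizontal axis, values beyond ±3 drawn at ±3) for each transcript at or above 1 FPKM of the CaM kinases (red), the 5 lists of associated genes (blue) and 9 lists of cell type markers (grey), with the median of each list as a black bar and dotted lines at 1.5-fold. The CaM kinases stay within 1.5-fold with a median of 0.14, and the habenula and pineal markers lie far to the left.

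Markers of several cell types differed between the groups beside these values. Excitatory neuron markers, which mark the cells that express most Camk2a, had a median log2 ratio of 0.10, with 3 of 4 transcripts above 0. Slc17a7 among them was at 736 FPKM after vehicle and 794 FPKM after CORT. The exception was Neurod6, at 128 FPKM after vehicle and 119 FPKM after CORT (-0.10). Dentate granule neuron markers had a median of -0.16, with 2 of 3 transcripts below 0 and Calb1 above it (0.05). Of 8 interneuron transcripts 7 were above 0 (median 0.30), and their summed level was 415 FPKM after vehicle and 513 FPKM after CORT. Below 0 were 8 of 11 astrocyte transcripts (median -0.10, with Gfap at 970 and 517 FPKM), 9 of 10 oligodendrocyte transcripts (-0.19), 6 of 7 microglial transcripts (-0.20), the exception being Tmem119 at 5.72 and 11.2 FPKM and higher by 1.5-fold, and 3 of 4 endothelial transcripts (-0.33). Choroid plexus markers were abundant in both groups and had a median that rounds to 0 (-0.0015, with Ttr at 6605 and 6598 FPKM). Summed over each list, the FPKM after vehicle and after CORT were 972 and 1030 for excitatory neurons, 143 and 135 for dentate granule neurons, 1714 and 1212 for astrocytes, 6814 and 5584 for oligodendrocytes, 125 and 102 for microglia, and 74.0 and 63.2 for endothelium. Most of the astrocyte difference was Gfap: without it that sum was 744 and 696 FPKM, and Slc1a2, the glutamate transporter, was at 159 and 175 FPKM. Neurod2, Dsp and Pecam1 of these lists had no row. All 5 habenula and pineal transcripts in the table were lower by 1.5-fold in the CORT group. Their summed level was 16.2 FPKM after vehicle and 2.06 FPKM after CORT, and Aanat, Crx and Tac2 of that list had no row. The habenula and the pineal gland lie outside the hippocampus. The part of these differences in the CaM kinase values was not tested. In whole tissue, fewer cells of a type, less RNA per cell and an unequal share of neighbouring tissue in the samples cannot be told apart. Of 10 transcripts of 7 corticosteroid receptor and response genes, 6 were higher by 1.5-fold with CORT, beside 4.00% of all transcripts. They were those of Per1 (10.2 and 19.7 FPKM), Klf9 (25.7 and 38.8 FPKM) and Fkbp5 (18.6 and 33.8 FPKM), the major transcript of Sgk1 (28.5 and 70.4 FPKM) and both of Tsc22d3. The paper names Per1, Klf9, Sgk1 and Tsc22d3 as corticosteroid-regulated from this same experiment, so their being higher is no independent check. The receptor genes were within 1.5-fold, with log2 ratios of -0.14 and -0.34 for the transcripts of Nr3c1 and 0.32 for Nr3c2.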

How the data were processed

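Hippocampal RNA of 8 rats was sequenced from stranded libraries of total RNA. The authors aligned reads to rn6 and estimated FPKM per Ensembl transcript, normalized geometrically between libraries, with 1 deposited FPKM value per group. The submitters' processing notes name TopHat2 2.0.10 and Cuffdiff 2.2.0. The methods give a minimum alignment count, pooled dispersion and corrections for multi-reads, bias and effective length. The authors' own fold changes, test statistics, p-values and q-values in the same table were not used. Depth per library is not given by these values, so no interval could be computed.

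Log2 ratios were computed here from the deposited FPKM values without a pseudocount, with Python 3.11.15, numpy 2.4.6 and pandas 2.3.3, and figures were made in matplotlib 3.10.9. The calculation of the calls was checked on simulated data for CORT over vehicle, with all 200 changed transcripts recovered. Those changes had no noise and all exceeded the limit, so this recovery was fixed in advance. It says nothing of how reliable a call is. The named genes were all CaM kinases, the highest gene of each associated list, those of the list past 1.5-fold, and check genes. The members and lists were chosen with earlier results of these data known. Alternatives were pseudocounts, scalings, filters, fold limits, and summed or single transcripts. No test between groups was possible from a single value per group.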

Additional observations from a re-analysis of the deposited data

How the results depend on the processing

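None of the CaM kinase transcripts differed by 1.5-fold under any alternative run, nor at a limit of 25% more in either group. A scaling shifts every log2 ratio by the same amount, and a pseudocount cannot change its sign. Of the 14 transcripts 10 thus had to stay above 0 under every pseudocount, and they also did under every scaling. With transcripts summed or with only the highest transcript, 8 of 10 genes were above 0. Their median of 0.14 lay between 0.05 and 0.14 under pseudocounts, filters, summed or highest transcripts and the scalings to totals or to the median of all transcripts, the lowest with each group scaled to the same total FPKM, a scaling that shifts every log2 ratio by 0.09 and leaves 33.99% of all transcripts above 0. Centred on the median of the excitatory neuron markers, which was added with the values already known, it was 0.037, and all 14 ratios moved by over 0.1. The share of Camk2a in CaMKII was 59.1% with vehicle and 61.8% with CORT when only the highest transcripts were used. The number of all transcripts past the limit, 1335, was 419 at 5 FPKM or more, 719 with a pseudocount of 1 FPKM, 3053 at a limit of 25%, 562 at 2-fold and 668 when transcripts were summed, where 33.2% of those past the limit were higher in place of 47.3%. Of the associated genes, 8 of 83 transcripts were past the limit, and 2 of 61 genes with transcripts summed, a count added later. A stricter filter leaves fewer transcripts and a different limit changes the count by construction, and the cause of the other changes was not tested. Leaving out each rat in turn was not run, since values per rat were not used. No paired analysis was possible because only a group value exists here for each treatment. The depth behind a value is not in the table, so the counting error of low transcripts such as Camk2g could not be computed.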

Other observations

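Some transcripts were near 0 in one group and clearly present in the other, as with the minor Ppp3r1 transcript. In the whole table, 26 transcripts were under 0.1 FPKM in one group and at 1 FPKM or more in the other, 17 of them low with vehicle and 9 low with CORT. Of these, 25 have another transcript of the same symbol in the table, and for 22 of the 25 the other transcripts, summed, differed by less than 1.5-fold. No CaM kinase transcript was among the 26. Among the listed genes, the astrocyte water channel gene Aqp4 also had such a transcript, at 0.0126 FPKM after vehicle and 2.55 FPKM after CORT, while its other 3 transcripts were lower in the CORT group, with log2 ratios of -0.16, -0.34 and -0.51.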
